A study of Mus musculus with 26 samples.

Results

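The genes described here are 9 regulators of entry into the cell cycle, measured by bulk RNA-seq in mouse B-lineage cells. They are the CDK inhibitors Cdkn1a, Cdkn1b, Cdkn2c and Cdkn2d, the pocket proteins Rb1, Rbl1 and Rbl2, and the transcription factors E2f1 and E2f2. They were taken by name from a table of read counts for 23762 gene symbols, by a rule that uses no measured value but was written with earlier results of these data known, and all 9 passed the filter that left 14862 genes for testing. The study addressed signalling through CXCR4, the receptor for the chemokine CXCL12, in late B-cell development. It comprised 18 RNA-seq libraries in 9 groups of 2.

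Of these groups, 4 carried a label on genotype or came straight from sorting. Sorted CXCR4-/- small pre-B cells were set against sorted wild-type (wt) small pre-B cells. CXCR4-/- small pre-B cells were cultured without the cytokine IL-7, either with CXCL12 or without it. The other 5 groups were pre-B cultures whose labels name no deletion, called CXCR4-sufficient here: CXCL12 plus ERK inhibitor II in medium lacking IL-7, IL-7 plus CXCL12, CXCL12 in medium lacking IL-7, medium lacking IL-7, and IL-7. All deficient cultures are titled small pre-B, and the sufficient ones pre-B, with 2 exceptions. Replicate 2 without IL-7 is titled small pre-B, and for replicate 2 without IL-7 with CXCL12 the count column says small pre-B where the title says pre-B. The labelled cell stage thus differs between deficient and sufficient cultures in most libraries, and there is no deficient culture with IL-7. All RNA was said to come from flow-sorted B-cell populations. Strain, age, the way CXCR4 was deleted, doses and culture times are not stated in the labels. No label says that replicates were separate animals or cultures either, so that p-values reflect the scatter of these libraries alone, and that scatter may be technical.

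Progression from G1 into S phase is driven by cyclin-dependent kinases (CDKs). The CIP/KIP inhibitors p21 (Cdkn1a) and p27 (Cdkn1b) bind cyclin-CDK complexes, and the INK4 inhibitors p18 (Cdkn2c) and p19 (Cdkn2d) bind CDK4 and CDK6. The pocket proteins Rb (Rb1), p107 (Rbl1) and p130 (Rbl2) bind E2F factors and repress genes of DNA replication and mitosis until CDKs phosphorylate them, while E2F1 and E2F2 count among the activating E2Fs. Rbl1, Cdkn2c, E2f1 and E2f2 are themselves known E2F-responsive genes, and Cdkn1a is a classical target of p53. In the bone marrow, large pre-B cells divide under IL-7, and small pre-B cells have left the cell cycle and recombine their light-chain genes.

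In the mouse genome (GRCm38.p6) the 9 genes lie apart, Cdkn1a at chr17:29090979-29100722, Cdkn1b at chr6:134920401-134925525, Cdkn2c at chr4:109660876-109666756, Cdkn2d at chr9:21288459-21291421, Rb1 at chr14:73192858-73325951, Rbl1 at chr2:157145893-157204534, Rbl2 at chr8:91070057-91123844, E2f1 at chr2:154559400-154569892 and E2f2 at chr4:136172274-136196057. Promoters of 8 of the 9 genes matched the RefSeq table of GRCm38.p6 (Rb1 did not). The following windows cover 250 bases before to 50 bases after a listed start, read along the RNA strand. They are shown because Rbl1, E2f1, Cdkn2c and E2f2 fell most in one comparison below and Cdkn1a varied most over the groups. For E2f1 the listed start lies 466 bases inside the annotated gene, and for the others it is the outermost one. Cdkn1a, Cdkn2c and E2f2 each have another listed start, 2790, 1384 and 8508 bases inside the gene. The windows of those starts are not printed and hold 0 E2F words and 0 p53 half-sites. Capitals mark words found by a search on both strands for an E2F word (TTTCCCGC, TTTGGCGC, TTTCGCGC or TTTGCCGC) or a p53 half-site.
Rbl1 (chr2:157204485-157204784, minus strand): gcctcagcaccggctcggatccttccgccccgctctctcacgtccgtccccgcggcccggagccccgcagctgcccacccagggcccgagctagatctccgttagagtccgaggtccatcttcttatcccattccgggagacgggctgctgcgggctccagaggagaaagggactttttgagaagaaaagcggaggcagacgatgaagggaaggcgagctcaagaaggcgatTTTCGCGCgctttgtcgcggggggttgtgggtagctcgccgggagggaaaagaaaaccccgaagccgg
E2f1 (chr2:154569377-154569676, minus strand): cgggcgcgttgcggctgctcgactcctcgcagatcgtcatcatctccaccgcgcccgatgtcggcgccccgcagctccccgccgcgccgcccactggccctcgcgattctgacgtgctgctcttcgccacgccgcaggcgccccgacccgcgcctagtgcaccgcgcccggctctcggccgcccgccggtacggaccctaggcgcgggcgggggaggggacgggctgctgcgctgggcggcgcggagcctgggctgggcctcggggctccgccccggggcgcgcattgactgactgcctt
E2f2 (chr4:136172024-136172323, plus strand): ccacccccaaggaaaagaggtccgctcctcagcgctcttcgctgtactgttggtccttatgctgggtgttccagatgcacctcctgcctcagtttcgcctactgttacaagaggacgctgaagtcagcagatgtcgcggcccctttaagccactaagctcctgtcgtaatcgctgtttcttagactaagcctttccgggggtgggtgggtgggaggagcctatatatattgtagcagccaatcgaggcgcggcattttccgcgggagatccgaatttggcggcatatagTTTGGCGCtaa
Cdkn2c (chr4:109666707-109667006, minus strand): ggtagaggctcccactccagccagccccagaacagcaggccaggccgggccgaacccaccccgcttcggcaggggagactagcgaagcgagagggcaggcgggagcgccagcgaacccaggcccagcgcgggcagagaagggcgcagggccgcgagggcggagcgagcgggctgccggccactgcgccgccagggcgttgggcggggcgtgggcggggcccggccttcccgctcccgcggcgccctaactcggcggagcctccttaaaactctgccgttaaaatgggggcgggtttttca
Cdkn1a (chr17:29090729-29091028, plus strand): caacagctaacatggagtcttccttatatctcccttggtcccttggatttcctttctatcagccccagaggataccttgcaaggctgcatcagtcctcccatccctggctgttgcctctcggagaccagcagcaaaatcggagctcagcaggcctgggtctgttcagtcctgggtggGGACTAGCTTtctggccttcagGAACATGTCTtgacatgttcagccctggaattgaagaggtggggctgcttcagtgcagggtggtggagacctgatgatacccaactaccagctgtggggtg
Rbl1 held the word TTTCGCGC, with its first base at -18 from the start, and E2f2 held TTTGGCGC at +39. Of 32851 windows of this length in the table, 2.26% held an E2F word, as did the windows of 8 of 21 matched genes (38.1%) in a list of S-phase E2F target genes. Both p53 half-sites of Cdkn1a, GGACTAGCTT at -73 and GAACATGTCT at -51, can be read on either strand, and 8.36% of all windows held a half-site. Cdkn2c and E2f1 showed none of these words in the windows printed, from which nothing follows about E2F. A match describes letters, and the counts do not show which start site these cells used.

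Total counts ran between 17257914 and 50235192 per library. The B-lineage identity of the cells could be followed in 12 pre-B markers, none of which was at 0 in both libraries of any group. Cxcr4 read 37.2 and 409 CPM (read counts scaled to a common library total after TMM correction) in the 2 libraries labelled sorted CXCR4-/-, against 943 and 922 CPM in sorted wt cells, so replicate 2 went part of the way against its label. In the CXCR4-/- cultures Cxcr4 lay between 114 and 137 CPM. Among sufficient cultures it lay at 113 and 112 CPM with IL-7, no higher than in the deficient ones, at 169 to 237 CPM without IL-7 with or without CXCL12, and at 266 to 322 CPM in IL-7 plus CXCL12 and with ERK inhibitor II. Without IL-7 it was 114 and 130 CPM in deficient cultures, against 169 and 171 CPM in sufficient ones. With CXCL12 in that medium it was 137 and 133 CPM, against 237 and 226 CPM. In the same medium the level was thus lower in deficient cultures, while across media it does not separate the genotypes. Whether the counted exons lie within the deleted part is not known. CXCR4-/- replicate 1 without IL-7 stood apart: its mean chi-square per gene against replicate 2 was 265, where 1 is sampling noise, while replicate 2 had 11.6 against replicate 1 of the CXCR4-/- cultures with CXCL12. The pairs without IL-7 with CXCL12 and without IL-7 came close to noise, at 1.34 and 1.48, although their replicates 1 and 2 carry different stage labels. Lastly, the 4 libraries with IL-7 and CXCL12 or with ERK inhibitor II held 1399 to 1730 CPM of Gapdh and 635 to 871 CPM of Rps29, whereas the other 14 held at most 12.3 and 2.43 CPM. Comparisons between that set and the rest cannot be told apart from a difference between library sets.

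The 4 CDK inhibitors had separate patterns over the 9 groups. Cdkn1a varied most, 17.8-fold between its lowest and its highest group mean. Neighbouring groups did not overlap, but some lay close. Sufficient cultures without IL-7 with CXCL12, with IL-7 plus CXCL12, and with ERK inhibitor II had means of 97.2, 99.5 and 102.6 CPM. With the inhibitor the log2 change was 0.08 against the first of these and 0.04 against the second, and neither passed. Sorted wt cells were lowest at 14.5 and 15.9 CPM, sorted CXCR4-/- cells next at 35.9 and 35.5 CPM, the 5 sufficient cultures lay between 95.9 and 139 CPM, and the CXCR4-/- cultures were highest with 219 to 291 CPM. Cdkn1b was highest where Cdkn1a was lowest, in sorted wt cells (292 and 284 CPM), then in sorted CXCR4-/- cells (179.6 and 197 CPM), and between 89.8 and 136 CPM in all cultures. For Cdkn2c, sorted wt cells (27.3 and 24.6 CPM) and sufficient cultures without IL-7 with CXCL12 (35.0 and 39.0 CPM) were at the bottom, and CXCR4-/- cultures at the top (109.9 to 119 CPM). Cdkn2d reached at most 12.1 CPM, and its 3 highest groups were the 2 Gapdh-rich ones and sorted CXCR4-/- cells.

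Among the pocket proteins, Rb1 and Rbl2 varied least and Rbl1 most. Rb1 spanned 2.85-fold between group means and Rbl2 2.30-fold, both with sorted wt cells highest and CXCR4-/- cultures without IL-7 lowest. Both lowest means rested on the library that stood apart, at 78.8 CPM of Rb1 and 35.0 CPM of Rbl2, against 124 and 64.8 CPM in its replicate. For Rb1 that replicate lay above the mean of 111 CPM with IL-7 and CXCL12, and the groups overlapped, while for Rbl2 it was still below every other group. Rbl1 spanned 3.78-fold. Its lowest libraries were those without IL-7 with CXCL12 (58.7 and 57.1 CPM), then sorted wt cells (101 and 94.7 CPM), and its highest those of CXCR4-/- cultures with CXCL12 (204 and 234 CPM). Between these ends the groups at 143 to 145 CPM on average (CXCR4-/- without IL-7, and IL-7) overlapped, as did the 4 highest with their neighbours.

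E2f1 and E2f2 shared their lowest group, sufficient cultures without IL-7 with CXCL12, and differed in the sorted cells. E2f1 read 25.0 and 28.0 CPM in that lowest group and 73.2 to 102 CPM in CXCR4-/- cultures without IL-7, its highest, which overlapped sorted CXCR4-/- cells. E2f2 was highest in the sorted cells, with 1117 and 1028 CPM in CXCR4-/- cells and 845 and 861 CPM in wt cells, against 340.1 to 530.2 CPM in all cultures. The 3 lowest groups of E2f2 lay at 346, 348 and 379 CPM on average, the first 2 of them overlapping.

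**Figure D1:**
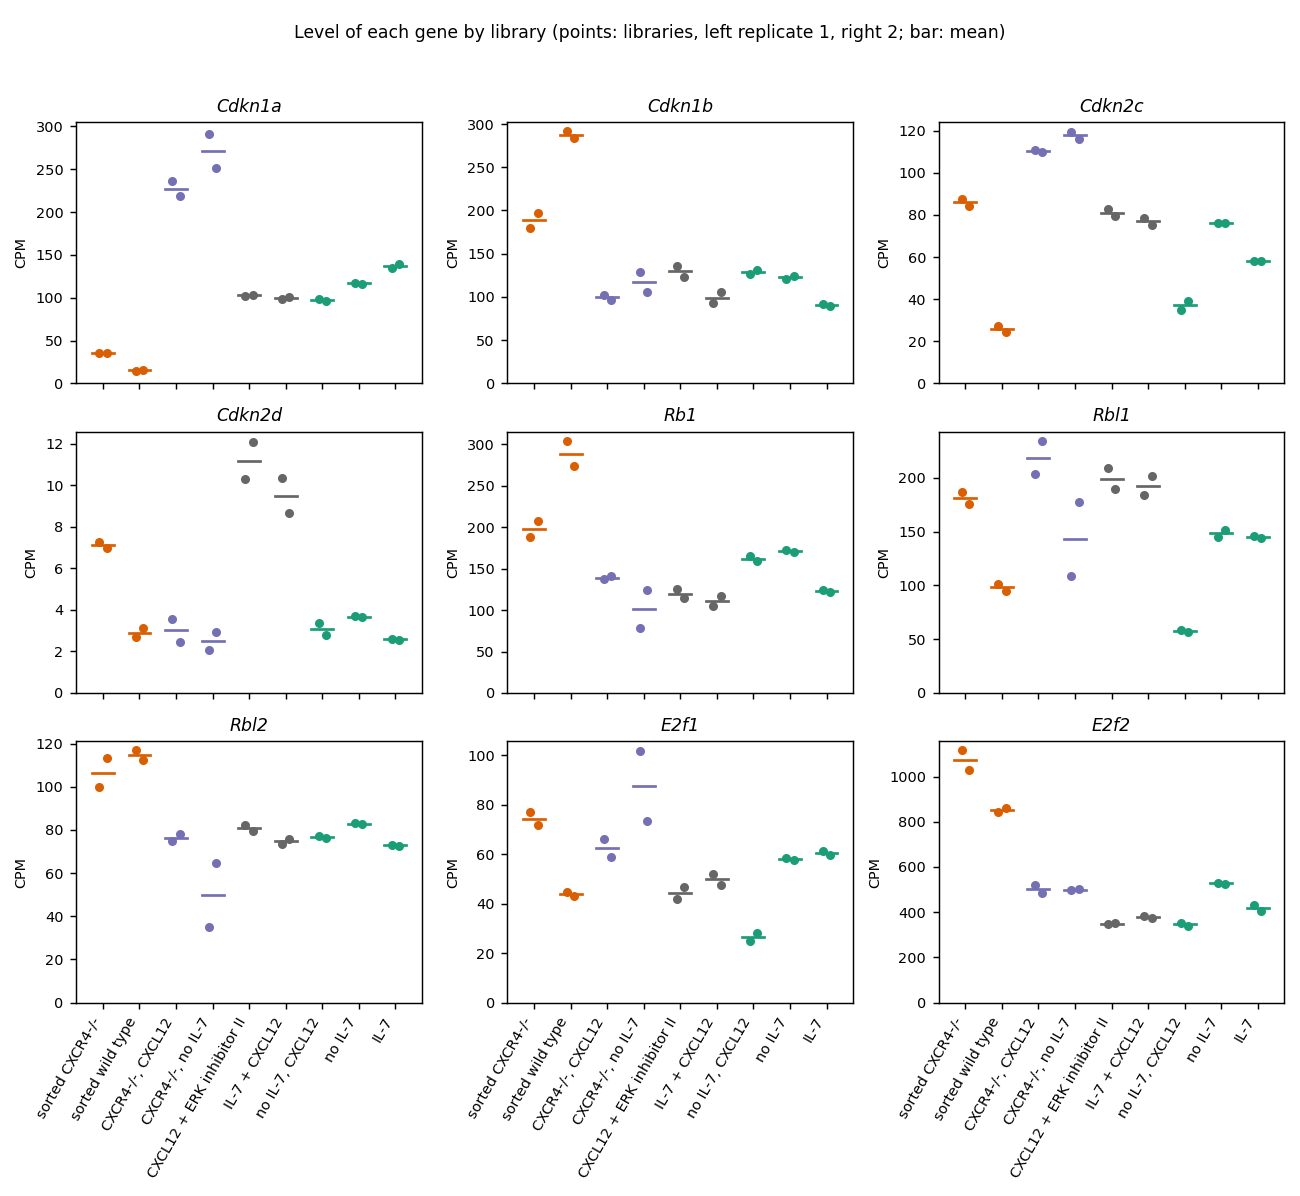
CPM of the 9 genes in each library, 1 panel per gene on a linear axis from 0 with the 9 groups along the bottom, points standing for libraries and bars for the mean of the 2 libraries of a group. Cdkn2c, Rbl1 and E2f1 are low in sufficient cultures without IL-7 with CXCL12 and in sorted wt cells, while Cdkn1a is lowest in sorted cells and highest in CXCR4-/- cultures.

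Adding CXCL12 to sufficient cultures without IL-7 came with lower levels of Rbl1, E2f1, Cdkn2c and E2f2. Of the 9 genes, 5 fell and 0 rose at an edgeR adjusted p under 0.05, where 30.6% of all genes tested passed (17.3% rose and 13.2% fell). The median log2 change of the 9 was -0.27, against 0.09 over all genes. The balance over all genes turned with the processing: 56.7% of the genes called were higher, against 43.0% without ribosomal protein genes, 41.3% without the Gapdh-rich groups and 35.9% with close replicate pairs summed. In bulk RNA, fewer cells of a type and less RNA per cell cannot be told apart.

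Of the pocket proteins, p107 alone passed. Rbl1 had 58.7 and 57.1 CPM with CXCL12, against 145 and 151 CPM without it. It was 2.56-fold lower with CXCL12 (log2 change -1.36 ± 0.17, edgeR adjusted p = 1.1e-04). Rb1 had 165 and 159 CPM with CXCL12, against 173 and 171 CPM without, a log2 change of -0.08 with an interval of -0.43 to 0.26. Rbl2 had 77.2 and 76.2 CPM, against 83.1 and 82.8 CPM (log2 change -0.11, interval -0.53 to 0.31). Neither passed (edgeR adjusted p = 0.73 and 0.70), and both intervals hold rises as well as falls.

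Both E2Fs fell. E2f1 had 25.0 and 28.0 CPM with CXCL12, against 58.4 and 57.6 CPM without it, and was 2.19-fold lower (log2 change -1.13 ± 0.14, edgeR adjusted p = 7.2e-05). E2f2 had 351 and 340.1 CPM, against 530.2 and 524 CPM (log2 change -0.61 ± 0.07, edgeR adjusted p = 7.1e-05). The estimate was larger for E2f1 than for E2f2, a difference that was not tested. The log2 ratio of E2f1 to E2f2 counts was -3.81 and -3.60 with CXCL12, against -3.18 and -3.19 without.

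Of the CDK inhibitors, none rose with CXCL12. Cdkn2c, the INK4 inhibitor p18, had 35.0 and 39.0 CPM with CXCL12, against 76.1 and 76.2 CPM without it, and was 2.06-fold lower (log2 change -1.04 ± 0.08, edgeR adjusted p = 1.5e-06). Cdkn1a had 98.5 and 95.9 CPM, against 117 in both libraries without CXCL12 (log2 change -0.27 ± 0.08, edgeR adjusted p = 0.028). That call on Cdkn1a was lost without any 1 of the 4 libraries, at adjusted p of 0.10 to 0.14, with log2 changes of -0.29 to -0.25. Cdkn1b, the inhibitor p27, had 127 and 131 CPM with CXCL12, against 121 and 125 CPM without, and its log2 change of 0.07 had an interval of -0.16 to 0.29. Cdkn2d, at 3.37 and 2.81 CPM against 3.70 and 3.64 CPM, did not pass (log2 change -0.23 ± 0.21).

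Genes acting with or under these regulators moved together in this comparison. All 27 S-phase E2F target genes of a list fell, with a median log2 change of -1.64, among them the replicative helicase subunit Mcm6 (-1.76 ± 0.07) and the maintenance methylation factor Uhrf1 (-1.87 ± 0.08). All 27 genes of a list of G2/M genes, known as targets of the repressive DREAM complex that holds p130 or p107, fell as well (median -1.44), led by cyclin A2 (Ccna2, -1.64 ± 0.08) and the spindle protein Nusap1 (-1.81 ± 0.09). Of 8 other E2F and DP genes, 4 fell and 0 rose. These included E2f7 (-1.67 ± 0.15) and E2f8 (-1.57 ± 0.18), which encode the atypical repressive E2Fs. Of 8 G1 cyclins and CDKs, 7 fell and 1 rose, with cyclins E1 and E2 (Ccne1 -1.70 ± 0.11, Ccne2 -1.72 ± 0.09) foremost. Of 7 genes of the MuvB core and its partners, 5 fell, among them Mybl2 (-1.49 ± 0.23), the B-Myb factor, and the histone-binding subunit Rbbp4 (-0.75 ± 0.09).

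The upstream lists split. In a list of 5 genes for turnover of p27, 2 fell, namely Skp2 (-1.79 ± 0.17), the F-box protein that marks p27 for degradation, and its cofactor Cks1b (-1.41 ± 0.25), while Cdkn1b itself had the interval given above. Of 12 FOXO target genes 7 rose and 0 fell, including the antiproliferative genes Btg1 (1.09 ± 0.10) and Btg2 (1.10 ± 0.10). Of 15 p53 target genes 4 rose and 1 fell, where 30.6% of all genes passed. Those with the smallest p were Mdm2 (0.54 ± 0.08), which restrains p53, and Gtse1 (-1.21 ± 0.08), a gene also known for its expression in G2. Of 4 other CDK inhibitors 2 rose, including p57 (Cdkn1c, 0.93 ± 0.24), and 1 fell, Cdkn3 (-1.26 ± 0.26), which encodes a CDK-associated phosphatase known to peak in dividing cells.

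Markers of other cells moved in the same comparison. Of 13 stromal genes tested 8 were higher and 1 lower with CXCL12, and their summed level was 5232 and 5123 CPM, against 2445 and 2411 CPM without it, with Lum at 0 in both groups. Of 19 myeloid genes 6 were higher and 0 lower, their sum being 922 and 921 CPM, against 364 and 360 CPM, with none at 0. Some of the stromal genes, such as Vim and Thy1, are expressed by lymphoid cells too. The part of these markers in the results on the 9 genes was not tested.

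**Figure D2:**
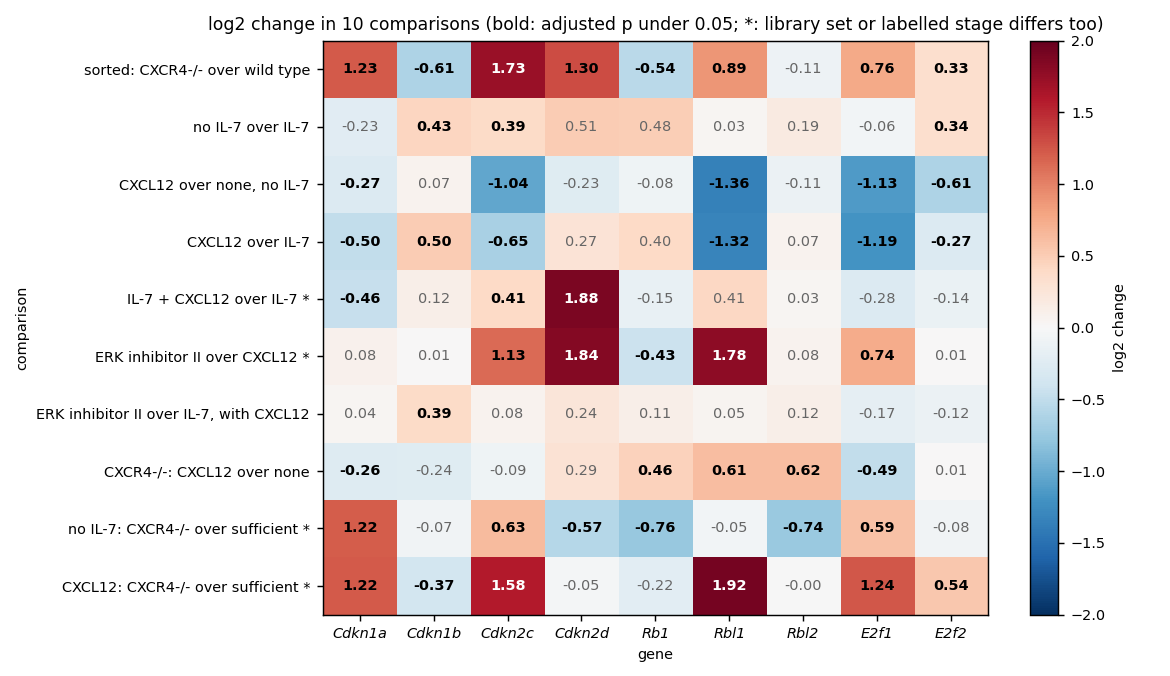
Heat map of the log2 change of the 9 genes (columns) in 10 comparisons (rows), red higher and blue lower in the group named first, with the value in each cell, in bold where the edgeR adjusted p was under 0.05 and an asterisk where the library set, or the labelled stage of at least 1 library, differs too. In sufficient cultures without IL-7, Rbl1 (-1.36), E2f1 (-1.13), Cdkn2c (-1.04) and E2f2 (-0.61) are blue with CXCL12, and in sorted CXCR4-/- cells the 4 are red.

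Against cultures with IL-7, those without IL-7 with CXCL12 showed Rbl1, E2f1, Cdkn2c, Cdkn1a and E2f2 lower and Cdkn1b higher. Here 1 of the 9 genes rose and 5 fell, where 51.3% of all genes passed (29.8% rose and 21.5% fell). Cdkn1b had 127 and 131 CPM without IL-7 with CXCL12, against 92.2 and 89.8 CPM with IL-7 (log2 change 0.50 ± 0.10, edgeR adjusted p = 0.0016). Rbl1 (-1.32 ± 0.17), E2f1 (-1.19 ± 0.14), Cdkn2c (-0.65 ± 0.08), Cdkn1a (-0.50 ± 0.08) and E2f2 (-0.27 ± 0.07) fell. The call on E2f2 was lost without replicate 1 with IL-7 (-0.23, adjusted p = 0.075) and without replicate 2 without IL-7 with CXCL12 (-0.25, adjusted p = 0.062). Rb1 lay at 165 and 159 CPM, against 124 and 122 CPM, and just missed the threshold (log2 change 0.40 ± 0.16, edgeR adjusted p = 0.051). All 27 S-phase genes fell (median -1.81). This comparison shares its CXCL12 libraries with the one above. Of 13 stromal genes 11 were higher and 1 lower, with sums of 5232 and 5123 CPM without IL-7 with CXCL12, against 1502 and 2066 CPM with IL-7, and Lum at 0 in both groups. Of 19 myeloid genes 17 were higher and 0 lower, their sum being 922 and 921 CPM, against 194 and 260.1 CPM, and of 12 mature B-cell genes 9 were higher and 1 lower. The part of these markers was not tested here either. Of all genes called, 58.1% were higher, against 48.0% without ribosomal protein genes.

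Removing IL-7 without adding CXCL12 moved the 9 genes less. Of these, 3 rose and 0 fell, where 11.8% of all genes passed (5.6% rose and 6.23% fell). Cdkn1b had 121 and 125 CPM without IL-7, against 92.2 and 89.8 CPM with it (log2 change 0.43 ± 0.10, edgeR adjusted p = 0.017). Cdkn2c had 76.1 and 76.2 CPM, against 58.2 and 58.0 CPM (0.39 ± 0.08, edgeR adjusted p = 0.0067). E2f2 had 530.2 and 524 CPM, against 429.9 and 406 CPM (0.34 ± 0.07, edgeR adjusted p = 0.011). Each of the 3 calls was lost without any 1 of the 4 libraries, at log2 changes of 0.41 to 0.45, 0.39 and 0.29 to 0.38 in the same order. Rbl1 read 145 and 151 CPM after loss of IL-7 against 146 and 144 CPM with it (log2 change 0.03, interval -0.34 to 0.40), and E2f1 58.4 and 57.6 CPM against 61.4 and 59.5 CPM (-0.06, interval -0.35 to 0.23).

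The S-phase list gave 5 falls and 0 rises of 27 on loss of IL-7 (median -0.19), including Mcm6 (-0.35 ± 0.07), and the G2/M list 0 falls and 1 rise, Ndc80 of the kinetochore (0.33 ± 0.09). Of 8 G1 cyclins and CDKs 2 fell: cyclin D2 (Ccnd2, -1.12 ± 0.18), known to be driven by IL-7 in pre-B cells, and its partner Cdk4 (-0.42 ± 0.11). Of 12 FOXO target genes 6 rose and 0 fell, among them Btg1 (0.68 ± 0.10) and the atypical cyclin Ccng2 (0.72 ± 0.08).

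Since Rbl1 varied more than its close relative Rbl2, the balance between p107 and p130 counts within a library differed between groups. The log2 ratio of Rbl1 to Rbl2 was -0.40 and -0.42 without IL-7 with CXCL12, against 0.81 and 0.87 without CXCL12 and 1.00 and 0.98 with IL-7. In sorted cells it was 0.90 and 0.63 in CXCR4-/- cells, against -0.21 and -0.25 in wt cells. Of the 18 libraries, these 4 without IL-7 with CXCL12 and from sorted wt cells were the ones below 0, and the other 14 lay between 0.63 and 1.63. The ratios are of counts, with no correction for gene length, so that they can be compared between groups and their sign carries no meaning of its own.

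**Figure D3:**
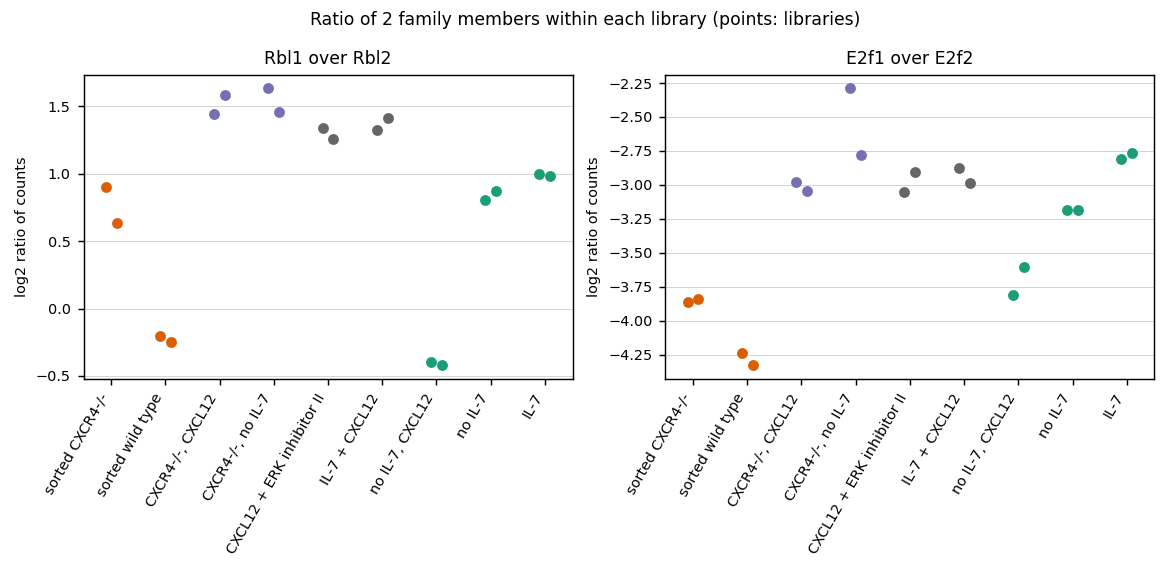
Log2 ratio of counts of Rbl1 over Rbl2 (left) and of E2f1 over E2f2 (right) in each of the 18 libraries, 1 point per library. Sufficient cultures without IL-7 with CXCL12 and sorted wt cells have the lowest Rbl1 over Rbl2, and the sorted cells and those same cultures the lowest E2f1 over E2f2.

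CXCL12 was also added to CXCR4-/- cultures without IL-7, and values of the 4 genes that fell most in sufficient cultures are given first. Rbl1 had 204 and 234 CPM with CXCL12, against 108 and 178 CPM without it. Cdkn2c had 111 and 109.9 CPM with CXCL12, against 119 and 116 CPM. E2f1 had 66.0 and 58.8 CPM, against 102 and 73.2 CPM, and E2f2 had 522 and 484 CPM, against 497 and 504 CPM. Libraries with CXCL12 were thus higher for Rbl1, lower for E2f1 and Cdkn2c, and on both sides for E2f2.

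Within the deficient cultures 3 of the 9 genes rose and 2 fell, where 33.8% of all genes passed (12.8% rose and 21% fell). Rbl1 (0.61 ± 0.17, edgeR adjusted p = 0.023), Rbl2 (0.62 ± 0.20, edgeR adjusted p = 0.032) and Rb1 (0.46 ± 0.16, edgeR adjusted p = 0.044) were higher, and E2f1 (-0.49 ± 0.13, edgeR adjusted p = 0.023) and Cdkn1a (-0.26 ± 0.08, edgeR adjusted p = 0.033) lower. Without replicate 1 without CXCL12, the library that stood apart, the changes were 0.31 for Rbl1 and 0.25 for Rbl2 (edgeR adjusted p = 0.046 for both), 0.18 for Rb1 (0.21), -0.22 for E2f1 (0.19) and -0.14 for Cdkn1a (0.18). With either CXCL12 library left out, none of the 5 passed, nor did any with only these 4 libraries in the fit, at adjusted p of 0.42 to 0.49. Replicate 1 without CXCL12 had the lower value of the pair for all 3 pocket proteins and the higher for E2f1 and Cdkn1b.

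The effect of CXCL12 differed between the genotypes for Cdkn2c, Rbl1, E2f1 and E2f2. The difference, deficient minus sufficient cultures on the log2 scale, was positive for all 4 and passed in an interaction test that 25.2% of all genes passed, 12.1% in this direction and 13.1% in the other. Of all genes called, 48% were positive, against 60.3% without ribosomal protein genes, 63.4% without the Gapdh-rich groups, 64.7% with close pairs summed and 66.8% without the library that stood apart, so that under these settings the direction of the 4 genes was the more common one. The difference was 1.97 ± 0.24 for Rbl1 (edgeR adjusted p = 1.4e-04), 0.95 ± 0.11 for Cdkn2c (9.0e-05), 0.62 ± 0.10 for E2f2 (0.0013) and 0.65 ± 0.19 for E2f1 (0.028). Without the library that stood apart these were 1.76, 1.08, 0.72 and 1.02, each with an edgeR adjusted p of at most 2.8e-05, and without its replicate they were 2.37, 0.94, 0.63 and 0.44. For E2f1 the call was lost without replicate 1 of the CXCR4-/- cultures with CXCL12 (0.56, adjusted p = 0.090), without replicate 1 or 2 without IL-7 (0.64 and 0.66, 0.080 and 0.072) and without replicate 1 without IL-7 with CXCL12 (0.57, 0.11). With only the 8 libraries concerned in the fit it was 0.72, with an adjusted p of 0.14.

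For the other 5 genes the interaction did not pass. The difference was 0.01 for Cdkn1a, with an interval of -0.24 to 0.26, and -0.30 for Cdkn1b (-0.62 to 0.01). Cdkn2d (0.52, interval -0.15 to 1.19), Rb1 (0.54, 0.05 to 1.03) and Rbl2 (0.73, 0.14 to 1.33) leaned the same way as Rbl1. Without the library that stood apart the difference was 0.36 for Rb1, 0.46 for Rbl2 and 0.22 for Cdkn1a. With each of the 8 libraries left out in turn it ran from 0.36 to 0.91, 0.46 to 1.25 and -0.086 to 0.22 in the same order. Which of the 5 passed changed with which CXCR4-/- library without CXCL12 was left out. In the same interaction 24 of 27 S-phase genes and 26 of 27 G2/M genes were called higher and 0 lower, with medians of 1.51 and 1.71 against -0.14 over all genes. These 2 counts were 27 and 27 without the library that stood apart. The 19 myeloid genes summed to 15.3 to 21.8 CPM in the deficient cultures, against 360 to 922 CPM in the sufficient ones without IL-7, and the 14 stromal genes to 625 to 1056 CPM, against 2411 to 5232 CPM. Col1a1, a defining stromal gene, was at 0 to 0.301 CPM in the deficient cultures, against 201 to 486 CPM. The part of these cells in the interaction was not tested.

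**Figure D4:**
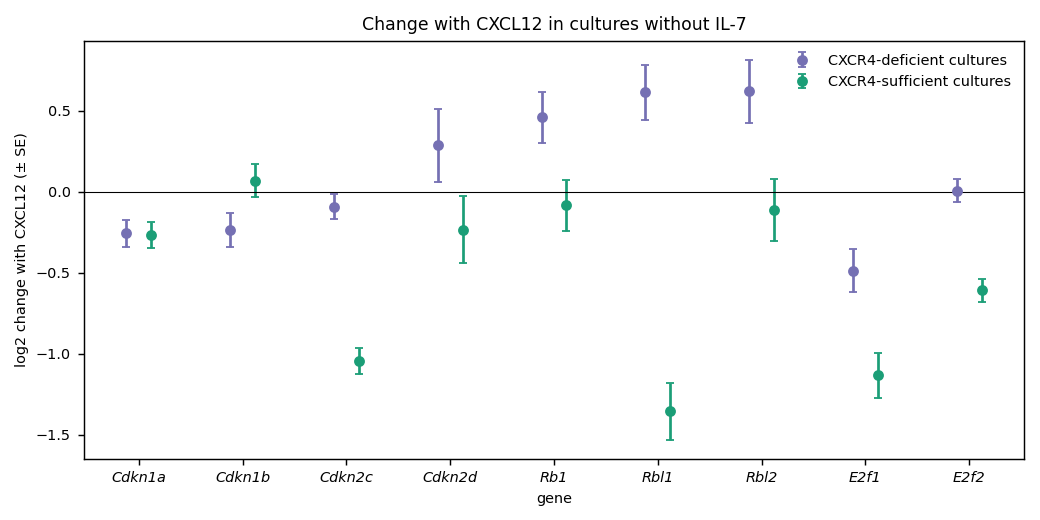
Log2 change with CXCL12 in cultures without IL-7, as the estimate ± SE for each of the 9 genes, in CXCR4-/- (deficient) and in CXCR4-sufficient cultures. Cdkn2c, Rbl1, E2f1 and E2f2 are separated between the genotypes, at differences of 0.95, 1.97, 0.65 and 0.62.

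Deficient cultures with CXCL12 were also set directly against sufficient ones with CXCL12. Of the 9 genes, 5 rose and 1 fell, where 63% of all genes passed (27.3% rose and 35.7% fell), so that a share of this size was close to the background. Rbl1 had 204 and 234 CPM in CXCR4-/- cultures, against 58.7 and 57.1 CPM in sufficient ones (log2 change 1.92 ± 0.18, edgeR adjusted p = 1.4e-06). Cdkn2c was 2.99-fold higher (1.58 ± 0.08) and E2f1 2.36-fold (1.24 ± 0.14), and E2f2 rose by less (0.54 ± 0.07). Cdkn1a, too, was 2.34-fold higher, with 236 and 219 CPM against 98.5 and 95.9 CPM (1.22 ± 0.08, edgeR adjusted p = 9.3e-08). Cdkn1b had 102 and 97.0 CPM, against 127 and 131 CPM (-0.37 ± 0.10, edgeR adjusted p = 0.0072), a call lost without replicate 2 of the deficient cultures (-0.34, adjusted p = 0.053).

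Cdkn1a was higher in the absence of CXCL12 as well. It had 291 and 252 CPM in CXCR4-/- cultures without IL-7, against 117 CPM in both sufficient libraries (1.22 ± 0.08, edgeR adjusted p = 4.0e-07), and 1.04 without the library that stood apart. In that comparison 3 of the 9 genes rose and 3 fell, where 65.6% of all genes passed (31% rose and 34.6% fell). Cdkn2c (0.63 ± 0.08) and E2f1 (0.59 ± 0.13) rose, and Rb1 (-0.76 ± 0.16), Rbl2 (-0.74 ± 0.19) and Cdkn2d (-0.57 ± 0.22) fell. Without the library that stood apart these were 0.54, 0.27, -0.54, -0.43 and -0.40, the last with an edgeR adjusted p of 0.18, and Cdkn1b, at -0.28, then passed (0.0090). With only these 4 libraries in the fit, Cdkn1a alone of the 6 passed. Rbl1 was at 108 and 178 CPM in CXCR4-/- cultures, on both sides of the 145 and 151 CPM of sufficient ones. The deficient cultures held fewer myeloid and stromal reads, as given above, and fewer mature B-cell ones. Of 12 mature B-cell genes 1 was higher and 11 lower with CXCL12 (median -2.19), with sums of 540 and 528 CPM in deficient cultures, against 1708 and 1681 CPM in sufficient ones, and 1 was higher and 9 lower without it (median -1.44). Genotype and these other cells cannot be told apart in either comparison, and replicate 1 of the sufficient cultures differs in the labelled stage too.

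Of 15 p53 target genes tested, 2 rose and 5 fell with CXCL12, where 63% of all genes passed, and 3 rose and 7 fell without it, where 65.6% did. The FOXO list gave 0 rises and 11 falls of 12 with CXCL12, with Btg1 at -2.59 ± 0.11 and the ubiquitin ligase Fbxo32 at -2.28 ± 0.12, and the S-phase list 27 rises of 27 (median 2.17). Skp2 rose by 2.98 ± 0.18 and cyclin E2 (Ccne2) by 3.04 ± 0.10 in that comparison.

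Sorted small pre-B cells gave a comparison of genotypes with no culture. Of the 9 genes 6 rose and 2 fell in CXCR4-/- cells, where 34.2% of all genes passed (16.6% rose and 17.6% fell), and the median log2 change was 0.76 against -0.01 over all genes. Cdkn2c had 87.7 and 84.4 CPM in CXCR4-/- cells, against 27.3 and 24.6 CPM in wt cells, and was 3.31-fold higher (1.73 ± 0.08, edgeR adjusted p = 2.3e-08). Cdkn2d had 7.27 and 6.999 CPM, against 2.68 and 3.12 CPM (1.30 ± 0.21, edgeR adjusted p = 5.6e-04). Cdkn1a had 35.9 and 35.5 CPM, against 14.5 and 15.9 CPM (1.23 ± 0.09, edgeR adjusted p = 6.3e-07). Both INK4 inhibitors and p21 were thus called higher in CXCR4-/- cells. Cdkn1b went the other way, with 179.6 and 197 CPM against 292 and 284 CPM (-0.61 ± 0.10, edgeR adjusted p = 6.4e-04).

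Rbl1 had 187 and 175 CPM in sorted CXCR4-/- cells, against 101 and 94.7 CPM in wt cells (0.89 ± 0.17, edgeR adjusted p = 0.0017). Rb1 had 188 and 208 CPM, against 304 and 274 CPM (-0.54 ± 0.16, edgeR adjusted p = 0.019). That call was lost without replicate 1 of either group, at -0.49 and -0.47 (adjusted p = 0.097 and 0.13). Rbl2, at 99.8 and 113 CPM against 117 and 112 CPM, did not pass (-0.11, interval -0.53 to 0.31). That interval overlaps the one of Rb1 (-0.89 to -0.20), and a difference between the 2 genes was not tested. E2f1 had 76.9 and 71.7 CPM, against 44.7 and 42.9 CPM (0.76 ± 0.14, edgeR adjusted p = 9.8e-04). E2f2 had 1117 and 1028 CPM, against 845 and 861 CPM (0.33 ± 0.07, edgeR adjusted p = 0.0041), and just missed the threshold without CXCR4-/- replicate 1 (0.26, adjusted p = 0.0501).

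All 27 S-phase genes and all 27 G2/M genes rose in sorted CXCR4-/- cells, with medians of 0.97 and 2.25. Among them were the ribonucleotide reductase subunit Rrm2 (1.74 ± 0.09), cyclin A2 (Ccna2, 2.55 ± 0.09) and Aurora kinase B (Aurkb, 2.18 ± 0.08). E2f7 (1.68 ± 0.15) and E2f8 (1.88 ± 0.18) were among 4 rises and 1 fall in 8 other E2F and DP genes. Foxm1 (2.17 ± 0.20) and Mybl2 (1.504 ± 0.23), partners of MuvB in G2/M transcription, were among 4 rises of 7 in their list. Of 4 other CDK inhibitors 3 rose, including Cdkn1c (1.98 ± 0.29) and Cdkn3 (2.30 ± 0.28). Cdkn1c was low, at a mean of 3.13 CPM in CXCR4-/- cells against 0.788 CPM in wt cells, and Cdkn3 had 40.5 against 8.22 CPM. Of 15 p53 target genes 2 rose and 5 fell, where 34.2% of all genes passed. Of 12 FOXO target genes 1 rose and 4 fell, Btg1 (-0.75 ± 0.10) and Btg2 (-0.71 ± 0.10) among them.

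Values of other markers moved beside these. Of 12 mature B-cell genes 8 were lower and 0 higher in sorted CXCR4-/- cells, with sums of 1230 and 1237 CPM, against 2537 and 2545 CPM in wt cells, and none at 0. Of 10 pro-B and progenitor genes 4 were higher and 2 lower. Dntt (2.02 ± 0.19), the terminal transferase of pro-B cells, and Kit (1.48 ± 0.21) were among the higher. The 2 lower ones were Flt3 (-1.26 ± 0.42) and Il2rg (-0.62 ± 0.08). Of 12 pre-B genes 2 were higher, the surrogate light-chain genes Vpreb1 (2.44 ± 0.39) and Igll1 (2.22 ± 0.27), and 4 lower, including Il2ra (-1.09 ± 0.10) and Rag1 (-1.05 ± 0.25). Of 11 T- and NK-cell genes 5 were lower and 0 higher. The sum of 19 myeloid genes was 7174 and 1255 CPM in the 2 CXCR4-/- libraries, against 5847 and 5794 CPM. The values of all 9 genes in the same pair of CXCR4-/- libraries are those given above. The part of these markers in the results was not tested.

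Inside the Gapdh-rich set, cultures given ERK inhibitor II and CXCL12 but no IL-7 were set against cultures with IL-7 and CXCL12. Of the 9 genes 1 rose and 0 fell, where 11% of all genes passed (6.5% rose and 4.54% fell). Cdkn1b had 136 and 123 CPM with the inhibitor, against 92.4 and 106 CPM with IL-7 (log2 change 0.39 ± 0.10, edgeR adjusted p = 0.030). Its call was lost without any 1 of the 4 libraries, at 0.27 to 0.46 and adjusted p of 0.063 to 0.32. The other 8 genes had log2 changes between -0.17 (E2f1) and 0.24 (Cdkn2d). For Rbl1, at 209 and 189 CPM against 184 and 202 CPM, the interval was -0.32 to 0.42. The S-phase list gave 9 falls and 0 rises of 27 (median -0.29), and cyclin D2 (Ccnd2) fell by 0.86 ± 0.17. Of 19 myeloid genes 8 were higher and 0 lower with the inhibitor, with sums of 3792 and 3874 CPM, against 2095 and 1931 CPM. Of 13 stromal genes tested 7 were higher and 0 lower, with sums of 1124 and 1153 CPM, against 767 and 768 CPM. The part of these markers was not tested.

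Across the library sets, the 2 comparisons left are given as values. Cultures with CXCL12 and ERK inhibitor II differed from those with CXCL12 alone in 5 of the 9 genes, 4 higher and 1 lower, where 56.9% of all genes passed (26.9% higher and 30% lower). Rbl1 had 209 and 189 CPM, against 58.7 and 57.1 CPM (1.78 ± 0.18), Cdkn2c 82.7 and 79.5 CPM, against 35.0 and 39.0 CPM (1.13 ± 0.08), and E2f1 41.7 and 46.6 CPM, against 25.0 and 28.0 CPM (0.74 ± 0.14). Cdkn2d was higher (1.84 ± 0.21), Rb1 lower (-0.43 ± 0.16), and E2f2 had 346 and 349.9 CPM against 351 and 340.1 CPM (0.01, interval -0.15 to 0.17). The call on Rb1 was lost without any 1 of the 4 libraries, at -0.50 to -0.37 and adjusted p of 0.068 to 0.17.

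Cultures with IL-7 and CXCL12 differed from those with IL-7 alone in 3 of the 9 genes, 2 higher and 1 lower, where 31.8% of all genes passed (15.3% higher and 16.5% lower). Cdkn2d had 10.3 and 8.67 CPM, against 2.59 and 2.57 CPM (1.88 ± 0.20, edgeR adjusted p = 2.2e-05), and Cdkn2c 78.6 and 75.2 CPM, against 58.2 and 58.0 CPM (0.41 ± 0.08). Cdkn1a had 98.7 and 100.3 CPM, against 135 and 139 CPM (-0.46 ± 0.08). Rbl1 (0.41 ± 0.17), E2f1 (-0.28 ± 0.13) and E2f2 (-0.14 ± 0.07) did not pass. Cdkn2d was thus high in both Gapdh-rich groups, by a like amount against both partners.

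The pattern of each gene over the 9 groups was set against that of 9070 genes, by the root mean square difference of centred log2 group means, where smaller is more alike. Rbl1 was most like Wdhd1 (0.12), a replication fork factor, Slbp (0.13), the histone mRNA-binding protein that is also in the S-phase list, and Dek (0.15), a chromatin protein. Cdkn2c was nearest to the kinetochore genes Spdl1 and Cenpl (0.14 each), and E2f1 to the DNA repair gene Mutyh (0.14). Cdkn1b lay nearest to Cklf (0.14), Rb1 to Fam160b1 (0.098), Rbl2 to Vcpip1 (0.081) and E2f2 to Nmral1 (0.20). Cdkn1a lay nearest to Cltb (0.26) and Cdkn2d to Uevld (0.34). The difference is not scaled to how much a gene varies, and Cdkn1a varied most (its own root mean square about its mean was 1.21, against 0.34 to 0.79 for the other 8), so the distances do not rank the 9 genes. Among the 9 genes themselves, Rb1 and Rbl2 (0.24) and Cdkn1b and Rb1 (0.25) were closest, and Rbl1 was 0.44 from both E2f1 and Cdkn2c. These are likenesses of 9 group means, described with no test.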

How the data were processed

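RNA-seq values were the authors' deposited raw read counts per gene symbol, made from poly(A)-selected stranded libraries per the labels' protocols. Per the submitters' processing notes the tools were STAR, BWA, Picard, featureCounts, bedtools and MACS2 and the build was mm9. Their versions, the annotation and the strand setting are not stated, so counts of overlapping or antisense genes are uncertain. Every count column was matched to a sample (0 were left over). For 1 of them, replicate 2 without IL-7 with CXCL12, the column says small pre-B and the title pre-B, and it was matched by medium, genotype and number. The 8 ATAC-seq peak lists, in mm9 positions, were not used here, since gene positions were at hand for GRCm38.p6 alone.

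Counts were fitted as deposited with edgeR 4.0.16 (R 4.3.3), with TMM scaling, the default filter on low counts (14862 genes left) and the robust quasi-likelihood test. All 18 libraries shared 1 fit with a mean per group, which leaves 9 residual degrees of freedom. A gene passed at a Benjamini-Hochberg adjusted p under 0.05 over all genes of a comparison, of which there were 11. The SE is the size of the log2 change over the square root of F, and intervals are at 95%. CPM are counts over the column total times its TMM factor, on the usual scale. The fit was tested on simulated data. Totals of 17257914 to 50235192 counts set the precision, and intervals and SEs cover the spread between these libraries.

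The genes and all lists were chosen with earlier results of these data known. Named were all 9 genes, the 2 genes with the smallest p per pathway list in the comparisons described, and the 3 genes most like each of the 9, among those with a mean log2 CPM of at least 3. Some genes that this rule names are not reported here. Vim, Thy1, Lum, Col1a1, Dntt, Kit, Flt3, Il2rg, Vpreb1, Igll1, Il2ra, Rag1, Gapdh and Rps29 were named after their values were seen. Alternatives were DESeq2 1.42.0, RLE size factors, other filters, a replicate block, leaving out libraries, groups or ribosomal protein genes, and summing close pairs.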

Additional observations from a re-analysis of the deposited data

Results flagged for a closer look

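The effect of CXCL12 in cultures without IL-7 differed between CXCR4-/- and sufficient cultures in 4 of the 9 genes, by an interaction term in the edgeR fit. On the log2 scale, deficient minus sufficient, the difference was 0.95 for Cdkn2c, 1.97 for Rbl1, 0.65 for E2f1 and 0.62 for E2f2, with adjusted p of 9.0e-05, 1.4e-04, 0.028 and 0.0013. Of all genes tested, 25.2% passed the same test. All deficient cultures are labelled small pre-B. So are replicate 2 without IL-7 in its title and replicate 2 without IL-7 with CXCL12 in its count column among the sufficient ones, while replicate 1 of both is labelled pre-B, and the part of the labelled stage was not tested.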

How the results depend on the processing

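With only the groups compared in the fit, the number of the 9 genes called was 8 on loss of IL-7 (3 as reported), 8 for CXCL12 without IL-7 (5), 5 for IL-7 and CXCL12 against IL-7 (3), 3 for the inhibitor against IL-7 and CXCL12 (1), 0 for CXCL12 in CXCR4-/- cultures (5) and 1 for CXCR4-/- against sufficient cultures without IL-7 (6). With the close pairs summed it was 0 on loss of IL-7, 0 for the inhibitor against IL-7 and CXCL12, and 0 for CXCL12 in CXCR4-/- cultures, and without the 2 Gapdh-rich groups 0 for the last. Leaving out 1 library gave 0 to 6 calls for CXCL12 in CXCR4-/- cultures, 3 to 8 for the interaction, 6 to 8 for the sorted cells, 5 to 7 and 5 to 6 for CXCR4-/- against sufficient cultures without and with CXCL12, 4 for CXCL12 without IL-7 and for the inhibitor against CXCL12, 5 to 6 for CXCL12 against IL-7, 3 for IL-7 and CXCL12 against IL-7, and 0 for loss of IL-7 and for the inhibitor against IL-7 and CXCL12.

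Calls over all genes moved likewise. With only the groups compared they were 7299 on loss of IL-7 (1758), 10790 for CXCL12 without IL-7 (4543), 8238 for IL-7 and CXCL12 against IL-7 (4720), 6068 for the inhibitor against it (1640), 0 for CXCL12 in CXCR4-/- cultures (5020), 2556 for CXCR4-/- against sufficient cultures without IL-7 (9743) and 1299 for the interaction (3750). With close pairs summed they were 355, 1149, 926, 0 and 1083 for loss of IL-7, CXCL12 without IL-7, the inhibitor against IL-7 and CXCL12, CXCL12 in CXCR4-/- cultures and the interaction. Without the Gapdh-rich groups they were 1069 on loss of IL-7 and 0 for CXCL12 in CXCR4-/- cultures. With 1 library left out they reached 589, 2257, 655, 3055, 0 and 1990 at the lowest for loss of IL-7, CXCL12 without IL-7, the inhibitor, IL-7 and CXCL12, CXCL12 in CXCR4-/- cultures and the interaction, 3137 for the sorted cells, and 8602 and 8377 at the highest for CXCL12 in CXCR4-/- cultures and the interaction. A fit of fewer groups has fewer degrees of freedom and its own estimate of the spread.

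Signs turned in values that had not been called in the fit of all 18 libraries. The largest of these was 0.29, for Cdkn2d with CXCL12 in CXCR4-/- cultures. For E2f2 with CXCL12 in CXCR4-/- cultures the log2 change was -0.00063 with RLE factors, -0.049 with no filter, -0.00056 with DESeq2 and -0.0031 without ribosomal protein genes, and for the interaction of Cdkn1a it was -0.021 with no filter and -0.0031 with 1 CPM in 2 libraries. Without ribosomal protein genes, Rbl1 on loss of IL-7 was -0.0049, Cdkn1b with CXCL12 -0.035, Rbl2 against IL-7 -0.067 with CXCL12 and -7.5e-05 with IL-7 and CXCL12, and Cdkn2d and Rbl2 in CXCR4-/- against sufficient cultures with CXCL12 0.021 and 0.061. Without the Gapdh-rich groups Cdkn1b and both Rbl2 values were -0.022, -0.040 and 0.033, with only the groups compared Rbl1, Cdkn1b and Rbl2 were -0.0039, -0.033, -0.053 and 0.038, and with close pairs summed E2f2 was -0.0047 for the inhibitor against CXCL12. Over libraries left out, the values that changed sign ran, for Cdkn1a in the interaction, between -0.086 and 0.22, and for Cdkn1b between -0.060 and 0.084 (inhibitor against CXCL12), -0.021 and 0.17 (IL-7 and CXCL12 against IL-7) and -0.28 and 0.062 (CXCR4-/- against sufficient without IL-7). For Cdkn2d they ran between -0.34 and 0.20 and between -0.0085 and 0.55 (CXCR4-/- with CXCL12 against sufficient with it and against no CXCL12), for E2f2 between -0.011 and 0.034 (inhibitor against CXCL12) and between -0.044 and 0.061 (CXCL12 in CXCR4-/- cultures), for Rbl1 between -0.040 and 0.12 (inhibitor against IL-7 and CXCL12) and between -0.46 and 0.19 (CXCR4-/- against sufficient without IL-7), and for Rbl2 between -0.028 and 0.040 (IL-7 and CXCL12 against IL-7) and between -0.035 and 0.031 (CXCR4-/- against sufficient with CXCL12). The cause was not tested.

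With the replicate block all 99 values of the 9 genes over 11 comparisons kept their direction and their side of the threshold. Replicate numbers are not said to pair libraries, and the correlation of same-numbered deviations was between -0.07 and 0.21 over the 10 pairs of groups.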
